A study of Mus musculus with 8 samples.

Results

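The genes described here are 45 antioxidant genes: NRF2 and its partner Keap1, enzymes of haem breakdown and quinone metabolism, the glutathione and thioredoxin systems, superoxide dismutases, peroxidases, glutathione transferases and 2 oxidant-producing enzymes. They were chosen by gene symbol, with earlier results of these data known, from a table of 24358 symbols, and all 45 were found. They were followed in APs, the adipocyte precursors of the dermis (stromal cells able to turn into fat cells), sorted by flow cytometry from male mice of the C57/Bl6 strain aged 7 weeks. The groups are 6 samples from nonwounded dorsal skin and 2 from day 5 wound beds. The labels name no transgene, drug or sort marker, and they do not say whether a sample is 1 animal or a pool. The deposited table lists every transcript isoform with 1 FPKM per group (fragment counts scaled to transcript length and library depth) and the p-value that the authors obtained with Cuffdiff, from 6 against 2 samples. Every adjusted p below derives from those p-values. Values of single samples were not at hand, so no SD can be given, the depth is unknown, and whether the samples of the groups overlap could not be seen.

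NRF2, encoded by Nfe2l2, is a transcription factor that is held in the cytoplasm and marked for destruction by KEAP1. Oxidants and electrophiles modify KEAP1, and NRF2 then enters the nucleus, pairs with a small MAF protein and binds the antioxidant response element, a short DNA motif near genes such as Nqo1, Gclc, Gclm, Txnrd1, Srxn1 and Hmox1. Glutathione and thioredoxin are the main thiol carriers of electrons in the cell. They feed the peroxidases, peroxiredoxins and transferases that remove peroxides and couple toxic molecules to glutathione. In wounded skin, leukocytes release oxidants, and fibroblasts are known to carry these defences.

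The comparison asks how these transcripts differ between APs of the day 5 wound bed and APs of nonwounded skin. The 45 genes did not move as a block. The genes of haem oxygenase 1, thioredoxin reductase 1, sulfiredoxin, the catalytic subunit of glutathione synthesis, glutathione reductase, Gpx1, Gsto1 and mitochondrial superoxide dismutase rose. Those that fell were 5 of 10 glutathione transferase genes, Txnip, Prdx6, Ephx1, Sod1 and Keap1. Counted once per gene on its major isoform (the tested isoform with the highest summed FPKM), 8 of the 45 were higher in the wound bed and 10 were lower at a Benjamini-Hochberg adjusted p under 0.05, taken over all tested isoforms of the table. Where values are given in pairs below, the nonwounded one comes first. Over all 13719 genes with a tested isoform the called share was 7.00% higher and 8.68% lower, 15.7% in all. For the 45 members it was 17.8%, 22.2% and 40%. Counts by role below cover 2 to 10 genes each and are to be read beside these shares. Calls are more frequent at high levels. Of the 4901 genes with a mean FPKM of at least 10, a level chosen after seeing the data, 21.7% were called in either direction. Of the 35 members above it, 7 were called higher and 9 lower, which is 45.7%. The members were chosen with earlier results of these data known, so these shares are a description and no test. The median log2 fold change of all 45 members, wound bed over nonwounded, was -0.26. That of 13135 tested genes with both values above 0 was -0.14. Over the 12522 tested isoforms that reached an FPKM of 1 in each group, the median shift was -0.11. Removing it turned the sign of 1 member, Txnrd2, which stood at 3.74 in both groups. Calls rest on the deposited p-values, which this does not touch.

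**Figure D1:**
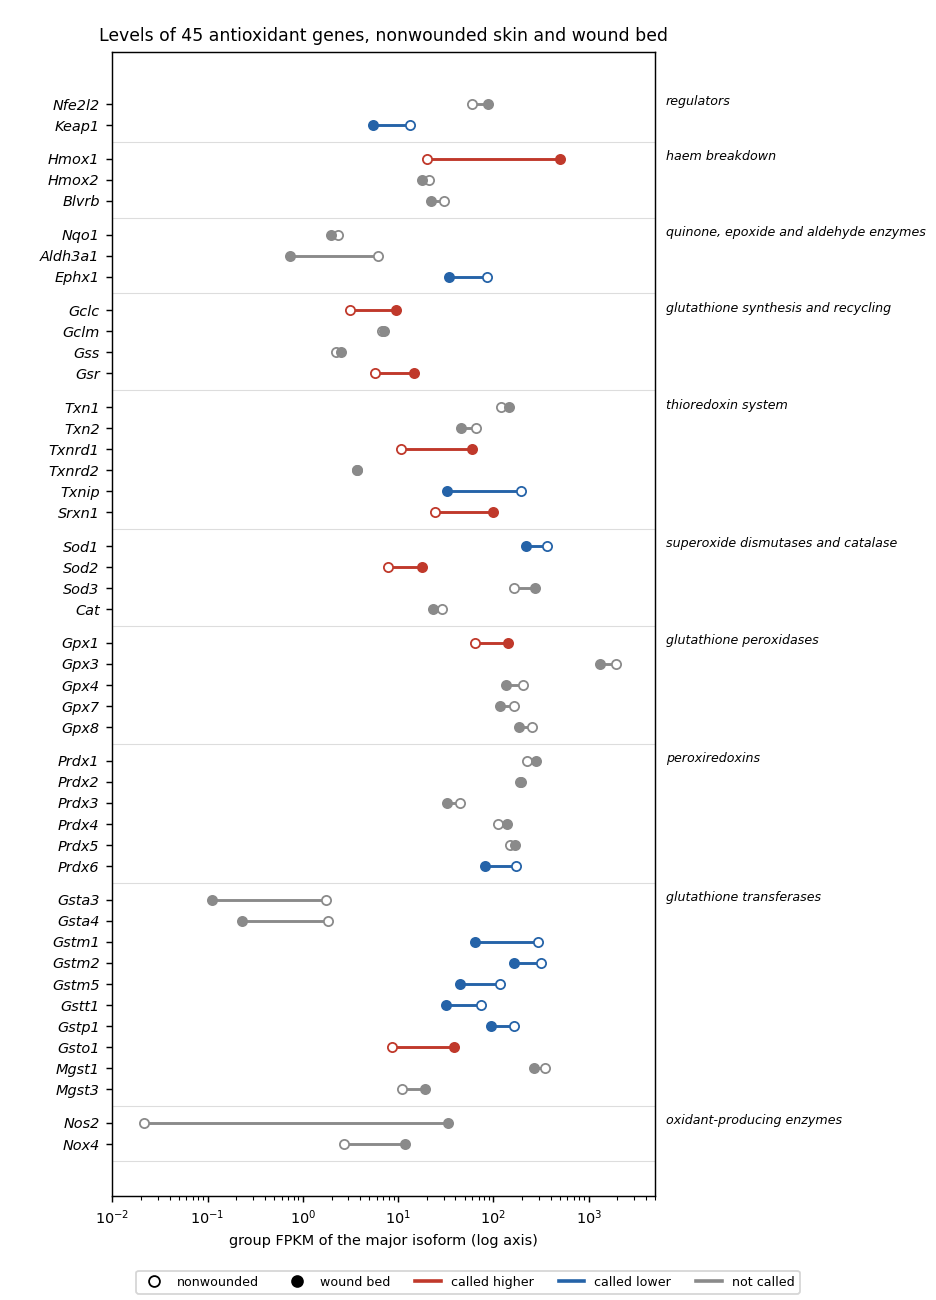
Group FPKM of the major isoform of each of the 45 genes (horizontal log axis), by role, with an open circle for nonwounded skin and a filled circle for the wound bed, joined by a line that is red where called higher in the wound bed, blue where called lower and grey where not called. Hmox1 moved from 20.0 to 505, Gstm1 from 297 to 64.6, and the peroxiredoxins other than Prdx6 were not called.

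Other cells that a dermal sort can hold differed between the columns, and these values bear on the genes below. For comparison, 7.00% of all tested genes were called higher and 8.68% lower. Of 11 tested macrophage and monocyte markers 7 were called higher and 0 lower, and their summed FPKM was 290 in nonwounded skin and 913 in the wound bed. The 5 tested neutrophil markers summed to 2.81 and 105 without a call. Of 6 tested erythroid markers 5 were called lower, with listed levels that summed to 3746 and 206, and Slc4a1 was listed at 0 in the wound bed. Lower calls were also made for 4 of 5 mast cell markers (sums of 59.0 and 6.24), 1 of 5 mature adipocyte markers (90.6 and 3.83) and 1 of 4 skeletal muscle markers (77.9 and 6.90). Of 6 keratinocyte markers 2 were called higher (19.4 and 35.6). None of the 4 tested endothelial markers was called. Pecam1, Cdh5 and Kdr had the higher value in the wound bed, and Tek the lower (log2 fold change -1.87). The median log2 fold change of the endothelial list was 0.35, although its sums were 89.2 and 26.2. That list also holds Emcn, which was not tested. Of 7 tested precursor and mesenchymal markers 1, Dpp4, was called lower and 0 higher, with sums of 4447 and 2837. All 7 were present in both columns. Pdgfra (78.8 and 81.2), Itgb1 (117 and 197) and Pdgfrb (20.7 and 31.3) had the higher value in the wound bed, and Cd34, Ly6a and Thy1 the lower, without a call. In bulk RNA, fewer cells of a type and less RNA per cell cannot be told apart.

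Of the 2 regulators 1 was called, in 1 isoform. Nfe2l2 stood at a group FPKM of 59.0 in nonwounded skin and 87.0 in the wound bed, a log2 fold change of 0.56 that was not called (adjusted p of 0.129). Keap1, the gene of its inhibitor, was read as a pair of tested isoforms that went opposite ways. The larger, NM_001110307, fell from 13.2 to 5.46 (log2 fold change -1.28, adjusted p of 0.0338). The smaller, NM_016679, stood at 1.75 and 3.55 and was not called (adjusted p of 0.204). The sum over the Keap1 isoforms gave -0.75 on the log2 scale.

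Hmox1 had the largest rise of the called members. It encodes haem oxygenase 1, which splits haem into biliverdin, iron and carbon monoxide. Its FPKM was 20.0 in nonwounded skin and 505 in the wound bed, a 25.3-fold rise (log2 fold change 4.66, adjusted p of 0.000882). By isoform sums Hmox1 was 29th of the 45 members in level in nonwounded skin and 2nd in the wound bed, and its share of their summed FPKM went from 0.315% to 9.60%. The log2 fold change of Hmox1 lay at percentile 98.8 of 12458 genes, those that reached an FPKM of 1 in either group with both values above 0. In the table the Hmox1 locus lies on chromosome 8 from 75093618 to 75100593. Hmox2, the constitutive haem oxygenase gene, stood at 21.2 and 17.7 for its major isoform and was not called. A second Hmox2 isoform was listed at 7.92 in nonwounded skin and 0.000526 in the wound bed, also not called, and a value that close to 0 gives no usable fold. Blvrb encodes biliverdin reductase B. Its larger isoform stood at 30.6 and 22.0 and the other at 16.0 and 10.8, without a call. Blvra, the gene of biliverdin reductase A and outside the 45, stood at 12.9 and 13.8 and was not called. Macrophages also express Hmox1, and their markers rose in the same column. The part of these cells in the Hmox1 value was not tested.

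The quinone, epoxide and aldehyde enzyme genes all had the lower value in the wound bed, and 1 of the 3 was called. Nqo1, the quinone reductase gene, was low, with an FPKM of 2.33 in nonwounded skin and 1.99 in the wound bed (log2 fold change -0.23, adjusted p of 0.836). Ephx1, which encodes microsomal epoxide hydrolase, fell from 86.6 to 33.8, a 2.56-fold lower level (adjusted p of 0.000882). Aldh3a1, an aldehyde dehydrogenase gene, stood at 6.12 and 0.731 for its major isoform, a log2 fold change of -3.06 that was not called (adjusted p of 0.0785).

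Of the genes of the 2 subunits of the first enzyme of glutathione synthesis, 1 was called. Gclc, the catalytic subunit gene of glutamate-cysteine ligase, rose from 3.16 to 9.59, 3.04-fold (adjusted p of 0.00368). Gclm, the gene of the modifier subunit, stood at 6.75 and 7.18 and was not called (log2 fold change 0.09). Gss, the gene of glutathione synthetase, which adds the last residue, was at 2.20 and 2.50 for its larger isoform without a call. Gsr, which encodes the reductase that restores oxidized glutathione with NADPH, rose from 5.70 to 14.8, 2.60-fold (adjusted p of 0.00239). None of the 4 reached an FPKM of 15 in either group, and their summed level was 19.4 in nonwounded skin and 35.8 in the wound bed.

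The thioredoxin system held both large rises and the largest called fall. Txnrd1, the gene of cytosolic thioredoxin reductase, rose 5.57-fold, from 10.9 to 60.4 for its major isoform (adjusted p of 0.000882). A second tested Txnrd1 isoform stood at 1.77 and 0.922 without a call. Srxn1 encodes sulfiredoxin, which repairs over-oxidized peroxiredoxins, and rose 4.03-fold, from 24.4 to 98.2 (adjusted p of 0.000882). Txn1, the gene of cytosolic thioredoxin itself, stood at 121 and 147 and was not called. The genes of the mitochondrial pair were not called either. Txn2 stood at 65.7 and 46.0 (log2 fold change -0.52) and Txnrd2 at 3.74 and 3.74.

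Txnip encodes a protein that binds thioredoxin and blocks it, and that also limits glucose uptake. Both of its tested isoforms fell: NM_001009935 went from 194 to 32.6 and NM_023719 from 164 to 24.5, which are 5.95-fold and 6.67-fold lower levels (adjusted p of 0.000882 each). By isoform sums Txnip was the 3rd highest of the 45 members in nonwounded skin and the 22nd in the wound bed. Its log2 fold change of -2.57 lay at percentile 4.46 of the same 12458 genes. The Txnip locus is given on chromosome 3 from 96555768 to 96566801.

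**Figure D2:**
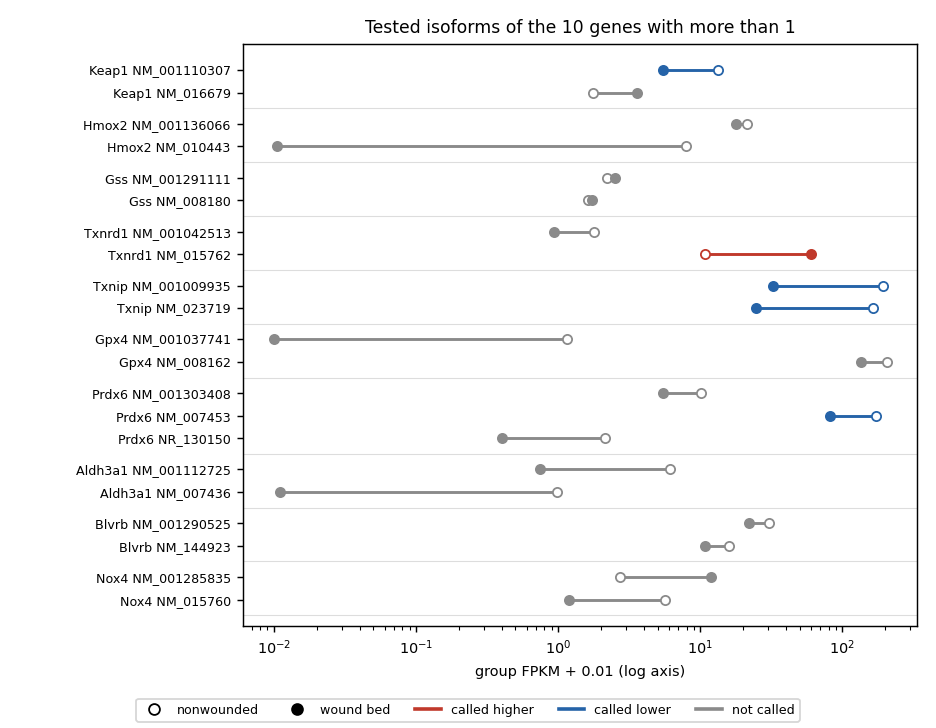
Group FPKM plus 0.01 (horizontal log axis) of each tested isoform of the 10 members with more than 1 tested isoform, open circles for nonwounded skin, filled circles for the wound bed, with line colours as calls. The isoforms of Txnip fell together, and those of Keap1, Txnrd1 and Nox4 lie in opposite directions. For Hmox2, Gpx4 and Aldh3a1, 1 isoform each sits at or near 0 in the wound bed.

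Superoxide dismutases turn superoxide into hydrogen peroxide in separate compartments, and 2 of their 3 genes were called, in opposite directions. Sod2, the mitochondrial enzyme gene, rose 2.28-fold, from 7.85 to 17.9 (adjusted p of 0.000882). Sod1, the cytosolic copper-zinc enzyme gene, fell from 364 to 222, a log2 fold change of -0.71 with an adjusted p of 0.0417, a call that was lost at an adjusted p under 0.01. Sod3, the extracellular enzyme gene, stood at 166 and 275 and just missed the threshold (log2 fold change 0.73, adjusted p of 0.0508). The summed level of the 3 genes and of Cat was 567 in nonwounded skin and 539 in the wound bed. Cat, the catalase gene, was at 29.1 and 23.4 without a call.

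Of the 5 glutathione peroxidase genes 1 was called. This is near the shares over all tested genes, 15.7%, and 21.7% at a mean FPKM of at least 10. Gpx1, the cytosolic peroxidase gene, rose 2.22-fold, from 64.0 to 142 (adjusted p of 0.000882). The other 4 were lower in value by 0.48 to 0.60 on the log2 scale and were not called. Gpx3, the secreted plasma peroxidase gene, was the highest member in both groups, at 1949 in nonwounded skin and 1332 in the wound bed (adjusted p of 0.409). It made up 30.8% and 25.3% of the summed FPKM of the 45 members. Gpx4, whose enzyme reduces lipid peroxides in membranes, stood at 205 and 135 for its major isoform (adjusted p of 0.165), and a second Gpx4 isoform at 1.14 was listed at 0 in the wound bed. Gpx7 and Gpx8, genes of peroxidases of the endoplasmic reticulum, stood at 163 and 117, and at 256 and 184 (adjusted p of 0.177 and 0.202).

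Of the 6 peroxiredoxin genes 1 was called, which is near the 15.7% called over all tested genes. Prdx6, which encodes the 1-cysteine peroxiredoxin that also has phospholipase activity, fell from 171 to 82.2 for its major isoform, 2.09-fold (adjusted p of 0.00306). The other tested Prdx6 isoforms were lower in level, with values of 5.49 and 0.390 in the wound bed, and were not called. Prdx1 stood at 227 and 281, Prdx2 at 193 and 195, Prdx4 at 111 and 138, and Prdx5 at 150 and 167. Prdx3, the mitochondrial form, stood at 44.9 and 32.8. These 5 were not called, with log2 fold changes from -0.45 to 0.32, and the summed level of all 6 was 909 and 902. Red cells are rich in Prdx2, and erythroid markers were lower in the wound bed column (sums of 3746 and 206). The part of red cells in the values of Prdx2 and the other peroxidase genes was not tested.

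Glutathione transferases couple glutathione to electrophiles, and 5 of the 10 member genes fell while 1 rose. The shares over all tested genes were 8.68% lower and 7.00% higher, and calls are more frequent at high levels. Gstm1 and Gstm2, mu class genes and among the 6 highest members in nonwounded skin, fell from 297 to 64.6 and from 320 to 163, which are 4.59-fold and 1.96-fold lower levels (adjusted p of 0.000882 and 0.00428). Gstm5, of the same class, fell from 118 to 44.4, 2.65-fold (adjusted p of 0.000882). Gstt1, a theta class gene, fell from 75.0 to 32.0, 2.34-fold (adjusted p of 0.00368). Gstp1, the pi class gene, fell from 164 to 93.8, 1.74-fold (adjusted p of 0.0254), a call that was lost at an adjusted p under 0.01. Gstp2, a near copy, stood at 59.5 and 42.5 and was not called, and how the fragments were split over this pair is uncertain.

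Gsto1 went the other way. It encodes an omega class transferase with dehydroascorbate reductase activity, and it rose 4.45-fold, from 8.71 to 38.7 (adjusted p of 0.00239). The membrane-bound enzymes were not called, with Mgst1 at 345 and 265 and Mgst3 at 11.1 and 19.0. Gsta3 and Gsta4, alpha class genes, were low, at 1.74 and 0.111 and at 1.85 and 0.229, and were not called. The summed level of the 10 transferases was 1342 in nonwounded skin and 721 in the wound bed, a 1.86-fold difference, and their share of the summed FPKM of all 45 members was 21.2% and 13.7%. Mast cell, mature adipocyte and skeletal muscle markers were lower in the same column, as given above, and their part in these falls was not tested.

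The fall of the mu class extended to genes outside the 45. This set of paralogues was put together after the values were seen, so it is a description. For comparison, 8.68% of all tested genes were called lower. The median log2 fold change of tested genes with both values above 0 was -0.14. The 7 mu class genes in the table lie together on chromosome 3, in loci that run from 107877230 to 108044859. All 7 had the lower value in the wound bed, and 5 were called lower: besides Gstm1, Gstm2 and Gstm5 these were Gstm4, from 17.3 to 6.90 (adjusted p of 0.0335), and Gstm7, from 4.77 to 0.990 (adjusted p of 0.0421). Gstm6 stood at 7.02 and 2.84 and Gstm3 at 2.07 and 0.229, neither called. Summed over the 7 genes the level was 771 in nonwounded skin and 284 in the wound bed, 2.71-fold lower. The mu class genes are alike in sequence, so the split between them is uncertain. FPKM is scaled to transcript length, so another split could change their sum too. Of the 3 theta class genes, which lie on chromosome 10 between 75774122 and 75834881, Gstt1 and Gstt3 (21.1 and 8.26, adjusted p of 0.00819) were called lower, and Gstt2 stood at 5.99 and 2.37 without a call.

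Paralogues parted in another pair of families. Beside the rise of Txnrd1 and the flat Txnrd2, Txnrd3, which encodes a reductase known from testis, fell from 9.09 to 2.80 (log2 fold change -1.70, adjusted p of 0.000882). The sestrins are stress-induced proteins that restrain growth signalling. Sesn1 fell from 35.7 to 5.12 (log2 fold change -2.80, adjusted p of 0.000882), whereas Sesn2 rose from 1.18 to 7.18 (2.60, adjusted p of 0.00239) and Sesn3 from 6.32 to 13.7 (1.12, adjusted p of 0.0265). Differences between paralogues were not tested, since no value per sample was at hand.

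**Figure D3:**
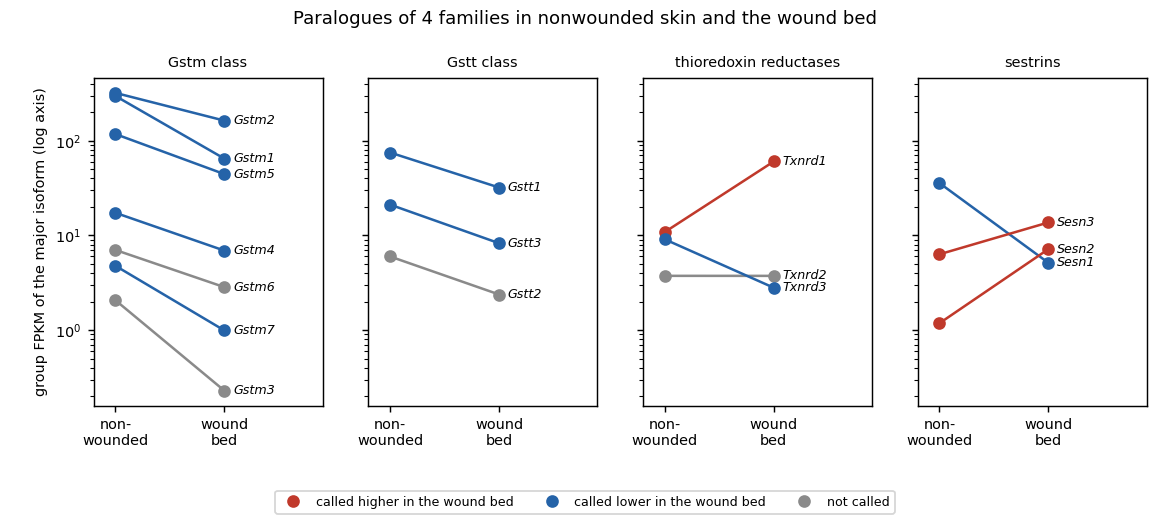
Group FPKM of the major isoform (vertical log axis) in nonwounded skin and the wound bed for 7 mu class and 3 theta class transferase genes, 3 thioredoxin reductase genes and 3 sestrin genes, 1 line per gene, red if called higher in the wound bed, blue if called lower and grey if not called. All lines of both transferase classes slope down, while Txnrd1 rises from 10.9 and Txnrd3 falls from 9.09, and the lines of Sesn1 and Sesn2 cross.

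The oxidant-producing enzymes had high values in the wound bed without a call. Nos2, which encodes inducible nitric oxide synthase, was listed at 0.0216 for nonwounded skin and 33.3 for the wound bed, with an adjusted p of 0.485. The log2 fold change of 10.59 rests on a nonwounded level near 0, and with a pseudocount of 1 it was 5.07. With 2 samples in the wound bed group and no value for either, it cannot be seen whether 1 of them carried the Nos2 level. Nox4, an NADPH oxidase gene of mesenchymal cells that makes hydrogen peroxide, was split between isoforms in opposite directions. NM_001285835 stood at 2.71 in nonwounded skin and 11.9 in the wound bed, and NM_015760 at 5.66 and 1.18, neither called (adjusted p of 0.144 and 0.332). The Nox4 isoforms summed to a log2 fold change of 0.63, against 2.13 for the major isoform alone. Activated macrophages and neutrophils also express Nos2, and the markers of both were higher in value in this column. The part of these cells in the Nos2 value was not tested.

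The partners of NRF2 were read from a list that holds no member. Of 13 tested genes 4 were called higher and 1 lower, and the list's median log2 fold change was 0.40. Over all tested genes 7.00% were called higher and 8.68% lower. Bach1, which encodes a repressor that competes for the same DNA motif and keeps Hmox1 off, rose from 5.02 to 30.8 (2.62, adjusted p of 0.000882). Mafk, a gene of a small MAF partner shared by NRF2 and BACH1, rose from 6.24 to 25.8 (2.05, adjusted p of 0.000882). Sqstm1 encodes the autophagy receptor p62, which binds KEAP1, and rose from 102 to 354 (1.80, adjusted p of 0.000882). The related factor gene Nfe2l1 was also called higher (1.05 for its major isoform, adjusted p of 0.0228), though its isoform sum gave 0.28. Rbx1, a subunit gene of the ubiquitin ligase that KEAP1 works with, fell by 0.77 on the log2 scale (adjusted p of 0.0348), and Cul3, its scaffold, stood at 23.4 and 30.9 without a call. Maff, of another small MAF, was at 1.24 and 41.2 and was not called (adjusted p of 0.0922).

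Detoxification enzymes and enzymes that make NADPH, the reducing power of both thiol systems, gave 2 higher and 2 lower calls among 24 tested genes, with a median of -0.17. These counts are close to the shares over all tested genes, 7.00% higher and 8.68% lower. Ftl1, the ferritin light chain gene, rose from 752 to 1625 (log2 fold change 1.11, adjusted p of 0.00549), and Akr1b8, an aldose reductase family gene, from 35.6 to 71.8 (1.01, adjusted p of 0.00167). G6pdx, the gene of the first enzyme of the pentose phosphate route, fell from 42.5 to 21.6 (-0.98, adjusted p of 0.00368), and Aldh1a1, a retinaldehyde dehydrogenase gene, from 64.4 to 27.2 (-1.25, adjusted p of 0.000882). Pgd, Taldo1 and Tkt of the same route were not called.

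Among genes of glutathione supply and breakdown and further transferases, 2 of 25 were called higher and 4 lower, with a median of -0.49. The shares over all tested genes were 7.00% higher and 8.68% lower, so the higher count is close to its share. The higher ones were both subunits of the cystine importer. Slc7a11, its transport subunit gene, rose from 0.364 to 1.23 (log2 fold change 1.76, adjusted p of 0.0393), which stays low. Slc3a2, the shared heavy chain gene, rose from 27.0 to 56.0 (1.06, adjusted p of 0.000882). All 4 lower ones were transferases, namely Gstm4, Gstm7 and Gstt3, given above, and Gstk1, the mitochondrial and peroxisomal kappa class gene (-1.20, adjusted p of 0.0473).

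In the list of other thiol proteins, 5 of 20 were called higher and 3 lower, with a median of -0.12. All tested genes gave shares of 7.00% higher and 8.68% lower. The metallothionein genes Mt2 and Mt1, whose cysteine-rich products bind zinc and copper, rose from 87.2 to 2416 and from 167 to 1483 (log2 fold changes 4.79 and 3.15, adjusted p of 0.000882 each). Nxn, the nucleoredoxin gene, was called higher too (2.08, adjusted p of 0.000882). Besides Sesn1 and Txnrd3, Selk, a selenoprotein gene of the endoplasmic reticulum, was called lower (-0.76, adjusted p of 0.0231).

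Oxidase and nitric oxide genes gave 2 higher and 4 lower calls among 18 tested, with a median of 0.20. Ddah1, which encodes an enzyme that breaks down methylated arginines that inhibit nitric oxide synthases, rose from 3.66 to 25.4 (2.79, adjusted p of 0.000882). Cybb, the catalytic subunit gene of the phagocyte NADPH oxidase, rose from 1.32 to 7.00 (2.41, adjusted p of 0.00306), in the column where macrophage markers rose. Aox1 and Aox3, aldehyde oxidase genes, and Xdh, the xanthine dehydrogenase gene, fell by 1.16, 1.10 and 0.94 on the log2 scale (adjusted p of 0.0152, 0.0102 and 0.0110), and Ddah2 was the other gene called lower. Arg1 and Gch1, genes of arginine breakdown and of the cofactor of nitric oxide synthases, stood at 0.132 and 41.1 and at 0.374 and 6.60 and were not called (adjusted p of 0.463 and 0.0591). Over the 5 lists together 15 of 100 tested genes had a higher call and 14 a lower one. The shares over all tested genes were 7.00% and 8.68%. At a mean FPKM of at least 10 the share in either direction was 21.7%, a limit not put on the 100 list genes.

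**Figure D4:**
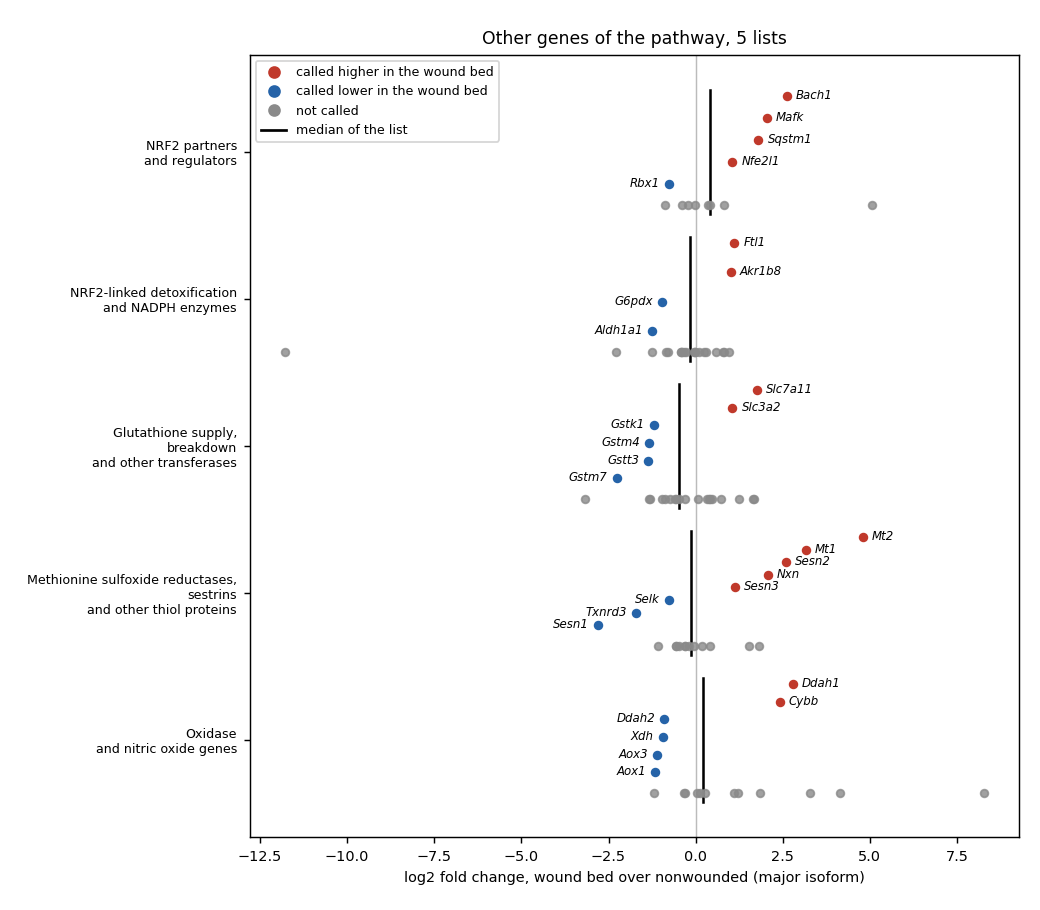
Horizontal axis, log2 ratio of wound bed to nonwounded FPKM for the major isoform of each tested gene of 5 lists of other pathway genes (rows), red with its name if called higher, blue with its name if called lower, grey on the lowest line if not called, and each list's median drawn as a bar. The medians run from -0.49 for glutathione supply to 0.40 for the NRF2 partners, and Mt2 at 4.79 is the highest called point.

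Because members that share a regulator can share a promoter motif, the RefSeq promoters were searched on both strands for the core of the antioxidant response element, TGACNNNGC. The window runs from 250 bases before to 50 after a gene's start in the GRCm38.p6 build, and 37 of the 45 genes had an entry. Of these 9 held the motif (24.3%), against 14.0% of all 27025 genes with a promoter in the table. On the gene's own strand alone the shares were close, with 3 of 37 members (8.11%) against 7.29% of all genes. A match is a description of letters, not a bound site, and no match says nothing of elements farther away. The matches are printed 5′ to 3′ on the strand that reads the motif, with the 9 motif bases in capitals and 10 bases on each side, to let the genes that rose and fell be compared.
Txnrd1, chr10:82859104-82859132, minus strand: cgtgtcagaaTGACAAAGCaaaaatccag
Srxn1, chr2:152105542-152105570, minus strand: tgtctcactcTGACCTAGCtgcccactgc
Nfe2l2, chr2:75704885-75704913, minus strand: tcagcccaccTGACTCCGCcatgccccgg
Gclm, chr3:122245413-122245441, minus strand: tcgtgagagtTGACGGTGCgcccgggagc
Prdx1, chr4:116685456-116685484, minus strand: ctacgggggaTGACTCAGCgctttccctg
Gstm5, chr3:107895802-107895830, plus strand: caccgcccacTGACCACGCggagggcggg
Sod1, chr16:90220696-90220724, minus strand: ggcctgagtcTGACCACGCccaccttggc
Mgst1, chr6:138140461-138140489, minus strand: ccccgcctccTGACCGTGCcaagccccgc
Gsta3, chr1:21240454-21240482, plus strand: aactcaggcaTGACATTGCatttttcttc

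The genes with a match went in both directions. Txnrd1 and Srxn1 rose, Gstm5 and Sod1 fell, and Nfe2l2, Gclm, Prdx1, Mgst1 and Gsta3 were not called. Gstm5 and Sod1 share the same 9 motif letters. The Prdx1 match, 133 bases before the start, is the only 1 of the 9 printed stretches that also holds the AP-1 motif TGANTCA, which overlaps the element there. The Txnrd1 match lies 92 bases before 1 of its 3 listed starts, and that of Srxn1 begins 28 bases after the start, inside the transcribed part. Hmox1, Gclc and Gsr, which rose, had no promoter entry, and Nqo1 had an entry without a match.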

How the data were processed

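TruSeq mRNA libraries were made from sorted APs, per the labels' protocols. TopHat2 2.0.2 served for alignment and Cuffdiff 2.0.2 for the group comparison, per the submitters' processing notes. The authors deposited 1 FPKM per group and isoform and the p-value of the comparison. These are not counts, so no count test was run, and no test across samples was possible. Columns of single samples left unused numbered 0.

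The deposited p-values of 17775 tested isoforms were adjusted by the Benjamini-Hochberg method, tested on simulated data, and the calls at 0.05 equalled the deposited significance column for every isoform. The smallest deposited p-value, 5e-05, is shared by 1008 isoforms, each with an adjusted p of 0.000882. Of 64 member isoforms 56 were tested. Log2 fold changes are wound bed over nonwounded FPKM without a pseudocount. Sums run over all isoforms of a gene except the 15 of the whole table with too many fragments or a failed test. Member isoforms among these numbered 0. The labels do not say whether samples came from separate animals, so the p-values speak only for these samples. They come from a Cuffdiff fit over all isoforms, not from the spread of each isoform alone.

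Loci are those of the table, with starts counted from 1, and can span neighbouring genes. The notes name mm9, but 40 of 45 member loci start or end within 100 bases of the GRCm38.p6 gene, so their build is uncertain. Date-like symbols of 56 isoforms were restored by transcript. Every member is accounted for. From the other lists up to 3 called genes per direction are named, chosen by fold, and further genes were picked with their values in view. The members and lists were chosen with earlier results of these data known. Alternatives were other thresholds, FPKM minimums, pseudocounts, centring and isoform sums. Python 3.11.15, numpy 2.4.6 and pandas 2.3.3 were used.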

Additional observations from a re-analysis of the deposited data

How the results depend on the processing

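No paired analysis was possible because the table gives 1 value per group, and for the same reason no sample could be left out in turn. Every member count stayed within 1.5 times its main value, 8 higher and 10 lower by gene, under each threshold and filter tried. Centring, isoform sums and pseudocounts leave the deposited p-values as they are and so cannot test the calls. At an adjusted p under 0.01 Keap1, Sod1 and Gstp1 lost their calls. Requiring a log2 size of 1 or more removed Sod1, Gstm2 and Gstp1, and a mean FPKM of 10 or more, added after seeing the data, removed Keap1 and Gclc. Sod3 and Aldh3a1 gained one at an adjusted p under 0.1, and Sod3 also when the adjustment ran over isoforms with an FPKM of at least 1. Among the other pathway genes the 14 lower calls became 5 at an adjusted p under 0.01 and 9 when a log2 size of 1 or more was required. The median log2 fold change of Nos2 and Nox4 moved from 6.36 to 5.61 with isoform sums, 3.43 with a pseudocount of 1 and 5.10 with a pseudocount of 0.1. With a pseudocount of 1 the low genes Gsta3, Gsta4 and Aldh3a1 gave -1.30, -1.21 and -2.04. The motif was found in 3 of the 37 member promoters (8.11%) on the gene's own strand alone, against 7.29% of all genes. The depth of each library is unknown.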
